A study of Homo sapiens with 11 samples.

Results

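The MEF2 transcription factors and the class IIa histone deacetylases (HDACs) were taken as 1 family of 8 genes: MEF2A, MEF2B, MEF2C, MEF2D, HDAC4, HDAC5, HDAC7 and HDAC9. Members were found by gene name in a table of 60656 rows of RNA abundance. All 8 had a row, and 7 passed the expression filter of at least 1 TPM, a relative transcript abundance, in at least 3 libraries. MEF2C did not, and is described by its values alone. The libraries came from Z138, an established mantle cell lymphoma line, and from 1 clone of it, # 7. Every library of that clone, controls included, carried Cas9-RFP and 2 guides against the DNA methyltransferase gene DNMT3A under doxycycline control. Of the 9 RNA libraries, 3 were uninduced with no treatment, while 3 at 5 days and 3 at 7 days had received 2 ng/mL doxycycline and are labelled sgDNMT3A KO. Replicates were separately frozen vials induced on different days, with the RNA of 2 technical duplicates pooled for each. Doxycycline, Cas9 and loss of DNMT3A cannot be told apart, because no induced library without the guides was analysed here.

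MEF2 proteins are transcription factors of the MADS-box family that bind an A and T rich DNA element, and in B cells MEF2B and MEF2C act in the germinal centre and in the response to antigen. MEF2B is recurrently mutated in B cell lymphomas, mantle cell lymphoma among them. Class IIa HDACs bind MEF2 proteins through a short amino-terminal motif and silence their targets, with little deacetylase activity of their own, by recruiting the NCOR corepressors and HDAC3. Phosphorylation by calcium- or LKB1-dependent kinases lets 14-3-3 proteins carry them out of the nucleus, which frees MEF2.

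The promoter windows shown here hold the features the results refer back to. They are RefSeq sequences on GRCh38.p14, from 250 bases before to 50 bases after an annotated start, printed 5′ to 3′ on the gene's strand. The family had 23 such windows for 7 genes, and HDAC5 was not among them. The MEF2 element, which has 10 letters and was searched on both strands, is its own reverse complement in form. It was found in 3 windows of 3 members, namely HDAC9, MEF2A and MEF2C, and in 2.99% of all 35116 windows. The matched letters are in capitals in the windows of HDAC9 (chr7:18086575-18086874, plus strand) and MEF2A (chr15:99565734-99566033, plus strand), where the match began 8 and 23 bases before the start. Such a match is a description of the sequence, and the TPM values do not say which start was used.
HDAC9: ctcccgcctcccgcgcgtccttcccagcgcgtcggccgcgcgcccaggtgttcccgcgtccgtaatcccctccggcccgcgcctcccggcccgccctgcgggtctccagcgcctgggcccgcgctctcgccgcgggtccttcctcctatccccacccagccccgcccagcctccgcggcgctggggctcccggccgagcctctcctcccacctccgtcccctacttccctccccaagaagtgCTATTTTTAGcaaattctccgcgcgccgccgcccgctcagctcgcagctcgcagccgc
MEF2A: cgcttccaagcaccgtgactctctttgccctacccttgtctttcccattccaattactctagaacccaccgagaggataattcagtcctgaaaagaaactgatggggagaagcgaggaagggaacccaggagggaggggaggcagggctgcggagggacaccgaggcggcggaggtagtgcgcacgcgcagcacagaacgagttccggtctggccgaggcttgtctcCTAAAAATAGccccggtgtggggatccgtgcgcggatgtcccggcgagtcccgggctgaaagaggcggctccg
The windows of MEF2B (chr19:19170214-19170513, minus strand) and of the readthrough gene BORCS8-MEF2B (chr19:19192103-19192402, minus strand) are shown because both rows cover the MEF2B exons, and because DNMT3A methylates CG pairs. Each CG is in capitals.
MEF2B: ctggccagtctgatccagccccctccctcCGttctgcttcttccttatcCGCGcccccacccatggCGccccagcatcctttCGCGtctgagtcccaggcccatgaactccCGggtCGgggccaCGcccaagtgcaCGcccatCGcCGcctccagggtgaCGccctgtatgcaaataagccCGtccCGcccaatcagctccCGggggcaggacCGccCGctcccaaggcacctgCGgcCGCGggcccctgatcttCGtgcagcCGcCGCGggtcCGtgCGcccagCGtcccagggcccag
BORCS8-MEF2B: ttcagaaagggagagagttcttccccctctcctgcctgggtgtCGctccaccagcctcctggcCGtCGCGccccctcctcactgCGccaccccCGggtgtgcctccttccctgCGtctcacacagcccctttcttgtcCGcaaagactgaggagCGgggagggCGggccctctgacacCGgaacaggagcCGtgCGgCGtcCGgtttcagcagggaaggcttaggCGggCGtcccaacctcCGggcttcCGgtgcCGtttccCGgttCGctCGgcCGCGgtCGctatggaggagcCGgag
The MEF2B window held 28 CG pairs and the readthrough window 27, against a median of 14 over all windows. The readthrough window is also the window of BORCS8. Methylation of these CG pairs was not measured in the libraries used here. The HDAC9 window shown held 41, while the other 4 HDAC9 windows held 5, 5, 5 and 0. The MEF2A window shown held 23, and the other 2 MEF2A windows held 45 and 34.

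The targeted gene, DNMT3A, averaged 10.1 ± 0.354 TPM in uninduced, 13.3 ± 4.86 in day 5 and 10.1 ± 0.866 in day 7 libraries (SD, n = 3 each), with 18.9 in day 5 library 1 as the highest value. Its RNA was not lower by the test in either induced group, and whole-gene TPM carries no information on cuts at the guide sites. All 8 B cell and mantle cell lymphoma markers were over 1 TPM in at least 1 library, with a summed level of 1839 to 2092 TPM in uninduced, 1752 to 2015 in day 5 and 1736 to 2114 in day 7 libraries. Of the T and NK cell, myeloid, epithelial and fibroblast, erythroid and muscle markers, those over 1 TPM in any library were CD3G, COL1A1 and ACTA1. COL1A1 lay between 7.04 and 16.1 TPM in all 9 libraries. CD3G reached at most 1.08 TPM, and ACTA1 at most 3.46 TPM with 4 libraries at 0. The muscle genes MYOD1, MYOG and MYH7 and all 4 erythroid markers were listed at 0 in all 9 libraries. TPM carries no sequencing depth, which is unknown. Between 21590 and 22895 genes per library were above 0. Levels refer to RNA relative to all transcripts of a library, so fewer expressing cells and less RNA per cell cannot be told apart.

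The MEF2 factors covered a wide range of RNA levels, from MEF2B at the top to MEF2C near the floor. Over the 9 libraries, MEF2B averaged 203 TPM, MEF2D 119, MEF2A 29.9 and MEF2C 0.200. The class IIa HDACs lay between, with HDAC7 at 45.5 TPM, HDAC5 at 29.7, HDAC9 at 17.0 and HDAC4 at 2.09. TPM is scaled by transcript length, so these levels can be set beside each other. Neighbours in this order had ranges that did not overlap, with 2 exceptions. MEF2B exceeded MEF2D in 6 of 9 libraries, and MEF2A exceeded HDAC5 in 3 of 9.

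**Figure D1:**
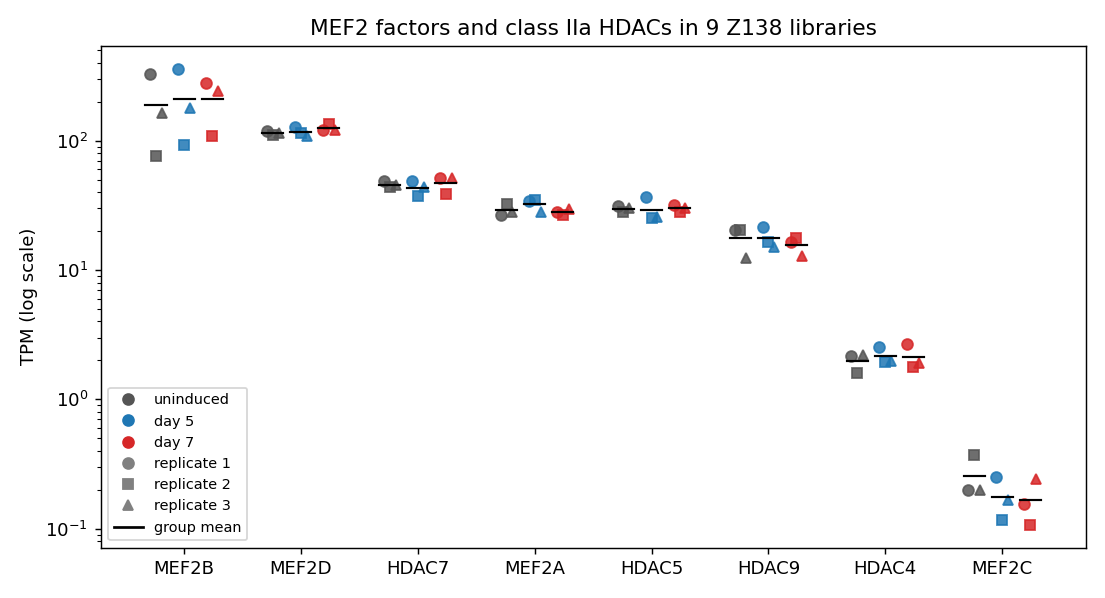
TPM of the 8 members on a log axis in each of 9 libraries. Colours are the induction groups, symbols the replicate numbers and black bars the group means. MEF2B spans 75.8 to 361 TPM with its replicate numbers spread apart, while MEF2D lies between 109.6 and 134 TPM in all libraries.

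MEF2B, the family member most often tied to lymphoma, was listed at 326, 75.8 and 164 TPM in uninduced libraries 1, 2 and 3. At day 5 the values were 361, 92.4 and 179 TPM, and at day 7 they were 281, 108 and 242 TPM. The 3 groups overlapped widely, and in each of them library 1 was high, library 2 low and library 3 between. The group means were 189 ± 127, 211 ± 137 and 210.2 ± 90.8 TPM (SD, n = 3 each). The log2 fold change, on the log2(TPM + 1) scale used throughout, was 0.18 at day 5 (95% interval −1.20 to 1.57) and 0.28 at day 7 (−1.10 to 1.66). Neither passed limma's test at a Benjamini-Hochberg adjusted p of 0.05. These intervals, from a fit of group alone, include changes of more than a doubling in either direction. With replicate number added to the fit they were −0.19 to 0.56 at day 5 and −0.09 to 0.65 at day 7, and neither change passed. The labels do not state that numbers pair the libraries.

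MEF2D, a MEF2 factor found in most tissues, was the steadiest member. Its levels were 119, 111 and 114 TPM in uninduced libraries, 127, 115 and 109.6 at day 5, and 120.1, 134 and 121 at day 7. All day 7 libraries lay above all uninduced ones, which held for no other member and for no member in the other pairs of groups. Of all tested genes, 6.13% did not overlap between day 7 and uninduced libraries, 5.56% between day 5 and uninduced and 4.31% between day 7 and day 5. The day 7 difference was 0.12 on the log2 scale (95% interval −0.10 to 0.35) and did not pass limma's test (adjusted p at least 0.9998).

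MEF2A, another widely expressed MEF2 factor, had 26.6, 32.7 and 28.2 TPM in uninduced, 33.9, 35.0 and 28.0 in day 5 and 28.0, 26.9 and 29.6 in day 7 libraries. Uninduced libraries overlapped both induced groups. Its log2 fold change was 0.14 (SE 0.13) at day 5 and −0.04 at day 7, the latter positive in the libraries numbered 1 and 3. MEF2C, which acts in germinal centre formation and B cell survival in mice, was listed at 0.199, 0.373 and 0.198 TPM, then 0.250, 0.116 and 0.165, then 0.155, 0.107 and 0.240. No library reached 1 TPM, and the uninduced range overlapped both induced ranges.

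HDAC7, the class IIa deacetylase known in mice for repressing genes of other lineages in lymphoid cells, was the most abundant of the 4. Its levels were 48.9, 43.5 and 45.1 TPM in uninduced, 49.0, 37.3 and 43.8 in day 5 and 51.9, 38.5 and 51.3 in day 7 libraries. Library 2 was the lowest of each group. The log2 fold changes were −0.08 at day 5 and 0.03 at day 7 (SE 0.15 for both).

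HDAC5, which is exported from the nucleus on phosphorylation in muscle and other cells, had 31.2, 27.9 and 30.3 TPM in uninduced, 36.4, 25.1 and 25.6 in day 5 and 31.9, 28.1 and 30.4 in day 7 libraries. The day 5 group held both the highest and the lowest of these values. HDAC9 carries the MEF2 element in the window shown above and in none of its other windows. Its levels were 20.5, 20.6 and 12.4 TPM, then 21.5, 16.4 and 15.2, then 16.4, 17.6 and 12.8. Library 3 was the lowest of every group. HDAC4, a regulator of chondrocyte and muscle genes, stayed low at 2.16, 1.61 and 2.21 TPM, then 2.54, 1.96 and 1.99, then 2.66, 1.79 and 1.90.

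Of the 7 tested members, 0 passed limma's adjusted p of 0.05 in any of 4 comparisons, and 0 had an unadjusted p under 0.05. Adjusted p was at least 0.9998 for every member. The background was as sparse, with 0.00665% of 15045 genes passing at day 5, 0% at day 7, 0.00665% between day 7 and day 5 and 0.00665% with both induced groups against uninduced. At unadjusted p under 0.05 there were 300, 337, 253 and 325 genes in these 4 comparisons, each under a 0.05 share of the tested genes. This fit of group alone leaves differences between replicate numbers in the spread. With replicate number added to the fit there were 771, 899, 591 and 904 such genes, and no member was among them. The day 5 and day 7 comparisons share their uninduced libraries. In the fit of group alone, the 95% intervals of the 6 tested members other than MEF2B stayed within 0.67 on the log2 scale. Those of MEF2B reached 1.66. A p that misses the threshold does not show that levels were equal.

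**Figure D2:**
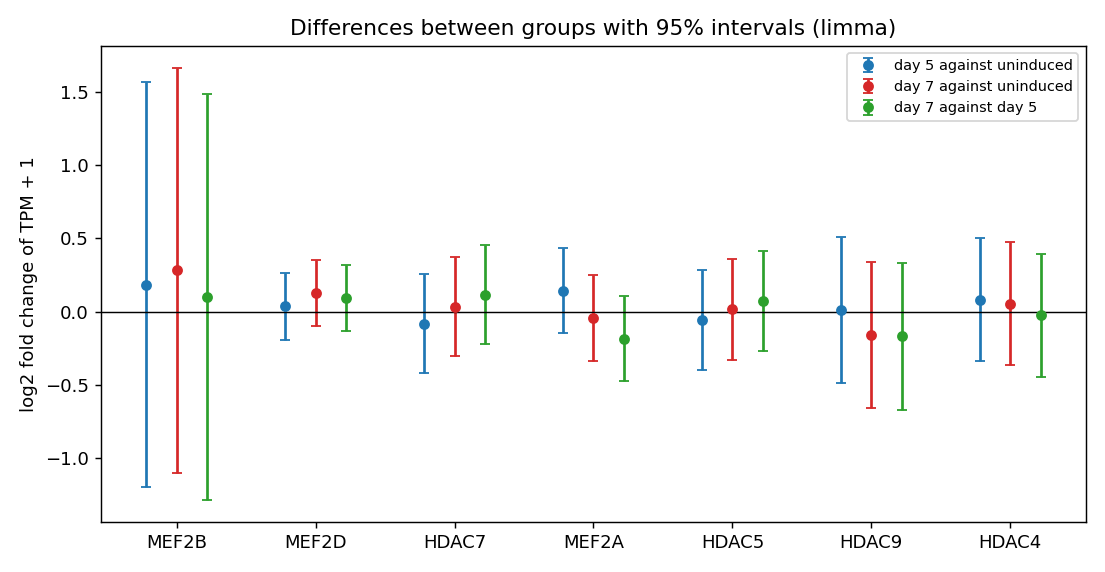
Log2 fold changes of TPM + 1 between groups for the 7 tested members, as points with 95% intervals from limma. Every interval crosses 0, and the MEF2B intervals are the widest, from −1.20 to 1.57 at day 5.

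The largest differences within the family lay between replicate numbers. Number means of MEF2B were 323 TPM for the libraries numbered 1, 92.0 for those numbered 2 and 195 for those numbered 3. The libraries with these numbers fell in 3 separate ranges, 281 to 361, 75.8 to 108 and 164 to 242 TPM. Among the 7 tested members MEF2B was the 1 so separated, against 5.44% of all tested genes. The labels do not say that a number marks the same vial or day in every group, so the source of these differences is not given in the sources used here.

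A limma F test of replicate number, in a fit of group plus number, called MEF2B (F = 65.5, adjusted p = 0.00514). On the log2 scale, number 1 exceeded number 2 by 1.81 (95% interval 1.43 to 2.18, a 3.50-fold difference) and number 3 by 0.74. Number 3 exceeded number 2 by 1.07. The same test called 12.6% of all tested genes, 1903 in number, and none of the other 6 members. Without day 5 library 2 it called 251 genes. In the fit of all 9 libraries, the adjusted p was 0.0775 for HDAC9, 0.0949 for HDAC7 and 0.213 for HDAC5. It was 0.350 for HDAC4, 0.676 for MEF2A and 0.695 for MEF2D. The call of MEF2B held on leaving out each library in turn, with adjusted p at most 0.0327.

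**Figure D3:**
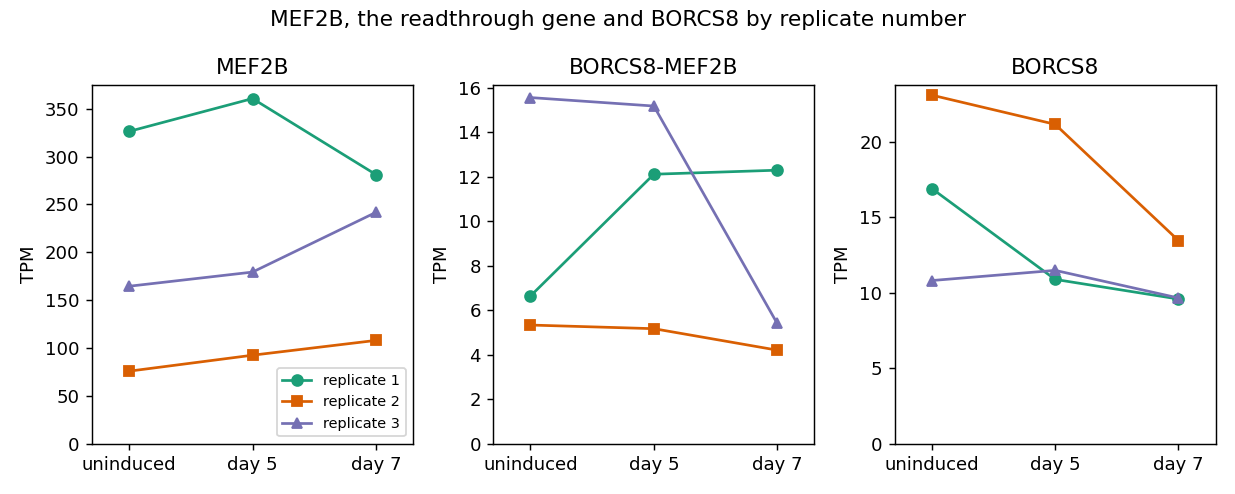
TPM of MEF2B, BORCS8-MEF2B and BORCS8 in uninduced, day 5 and day 7 libraries, with 1 line for each replicate number joining libraries that share a number in the labels. MEF2B keeps the order 1, 3, 2 in every group, while BORCS8 is highest in the libraries numbered 2.

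MEF2B lies at chr19:19145567-19170263, inside the span of the readthrough gene BORCS8-MEF2B at chr19:19145567-19192152, so transcript assignment could split reads between the rows. The readthrough row held 6.64, 5.33 and 15.6 TPM in uninduced, 12.1, 5.17 and 15.2 in day 5 and 12.3, 4.21 and 5.41 in day 7 libraries. MEF2B made up 91.4 to 98.0% of the sum of both rows. The replicate number test on that sum gave F = 80.0 and an adjusted p of 0.00406. The sum lay between 293 and 373 TPM in the libraries numbered 1, 81.1 and 112 in those numbered 2, and 180.1 and 247 in those numbered 3, so its ranges did not overlap either. BORCS8, the upstream neighbour and a subunit of a lysosome-positioning complex, ran in another order, at 16.9, 23.1 and 10.8 TPM, then 10.9, 21.2 and 11.5, then 9.58, 13.5 and 9.65. Its number test gave an adjusted p of 0.0418, which was lost on leaving out 7 of the 9 libraries in turn.

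Of the 8 B cell and mantle cell lymphoma markers, 5 were called by the replicate number test, which called 12.6% of all tested genes. CD79A, CD22 and CCND1 were not called. PAX5, the transcription factor of B cell commitment, had number means of 17.7, 35.0 and 20.3 TPM (limma F test adjusted p = 0.00577). SOX11, a mantle cell lymphoma marker, had 45.5, 27.1 and 35.2 TPM (adjusted p = 0.0146). The SOX11 call was lost without uninduced library 2 and without day 5 library 2, and MS4A1 and CD79B were called too but lost on leaving out 6 and 2 of the 9 libraries in turn. EGR1, a stimulus-induced MEF2 target, had 5.29, 20.8 and 23.3 TPM (adjusted p = 0.00415). The libraries highest in MEF2B were thus lowest in EGR1, and those lowest in MEF2B were highest in PAX5. The other tested targets went both ways. By number mean, EGR2, KLF2 and NR4A1 were lowest in the libraries highest in MEF2B, while KLF6 and RHOB were highest in them. The part of these differences in the MEF2B result was not tested.

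**Figure D4:**
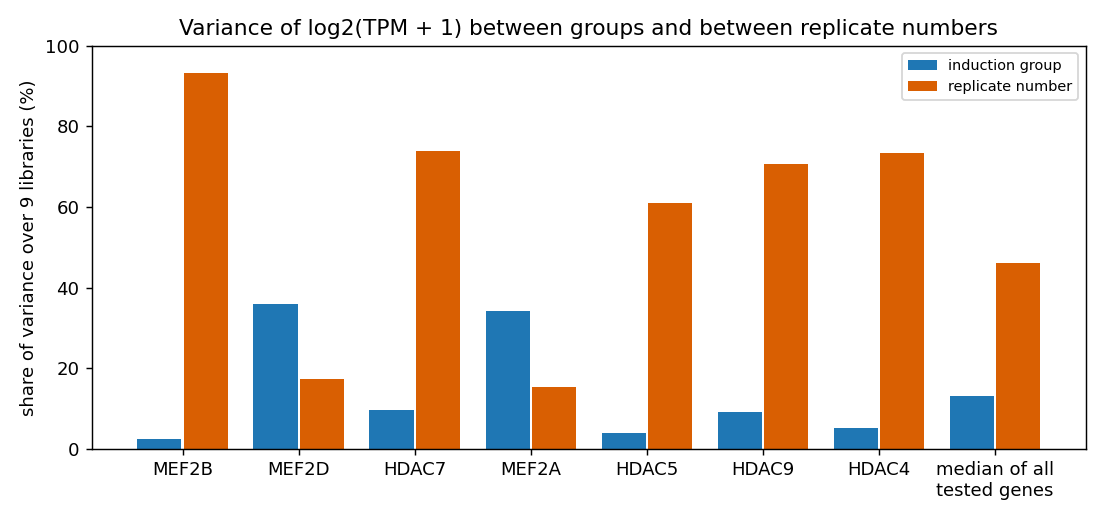
Share of the variance of log2(TPM + 1) over 9 libraries that lies between induction groups and between replicate numbers, in percent, for the 7 tested members and as the median of all tested genes. Replicate number holds 93.2% for MEF2B, while MEF2D and MEF2A have more between groups than between numbers.

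Replicate number held 93.2% of the variance of MEF2B and 61.1 to 73.9% of that of the 4 class IIa HDACs, against a median of 46.0% over all tested genes. For MEF2D and MEF2A it held 17.2% and 15.3%, and induction group held 35.9% and 34.0%, against a median of 13.0%. These shares are descriptions over 9 libraries.

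Summed over the 4 genes, MEF2 RNA was 219 to 522 TPM and followed MEF2B, at 429.5 to 522 TPM in libraries numbered 1, 219 to 269 in those numbered 2 and 307 to 393 in those numbered 3. Without MEF2B the sum was 137.8 to 162 TPM. The class IIa HDAC sum was 80.8 to 109 TPM, of which HDAC7 made up 44.8 to 53.2%. The ratio of MEF2 to class IIa HDAC RNA was between 2.34 and 4.77, and MEF2B made up 34.5 to 69.1% of MEF2 RNA.

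Across the 9 libraries and among genes of mean TPM of at least 5, genes most like MEF2B by Pearson r of log2(TPM + 1) included KCNJ11 and CTTN, at 0.99 each. HDAC4 was most like DONSON (0.96), MARCHF5 (0.95) and FBXO30 (0.94), and HDAC7 like UNKL (0.96), IGSF8 (0.95) and LRP5 (0.95). HDAC9 was most like RCE1 (0.96), GTF3C1 (0.94) and COQ10A (0.93), and HDAC5 like CYTH3 (0.95), BCL3 (0.94) and PPFIA3 (0.94). The values were lower for MEF2A, most like APOBEC3F (0.91), TBC1D25 (0.90) and GAPVD1 (0.87), and for MEF2D, most like RNF214 (0.89), NDEL1 (0.88) and DDHD2 (0.88). All these libraries come from 1 clone and share their groups and numbers, so the values describe likeness over 9 points only.

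The other genes of the pathway were read from lists of its roles, and 0 members of any list passed limma's adjusted p of 0.05 in any comparison. Tested were 6 of 7 other zinc-dependent HDACs, 13 of 17 kinases, 9 of 10 14-3-3 and export genes, 12 of 13 corepressors, 12 of 12 MEF2 activators and 6 of 12 reported target genes. The 14-3-3 and export list also holds PPP2CA and PPP2R1A, which encode phosphatase subunits. At day 7, the median log2 fold change was −0.07 for the other HDACs, 7.60e-04 for the kinases, 0.02 for the 14-3-3 and export genes, 0.0049 for the corepressors, 0.02 for the activators and −0.10 for the targets. Over all tested genes it was −0.02, with 44.9% higher.

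For each list, the 2 genes with the smallest day 7 p are given as values. MAPK7, the kinase ERK5 that activates MEF2 by phosphorylation, had 6.62 ± 0.469 TPM in uninduced and 10.1 ± 2.15 in day 7 libraries (n = 3 each), a log2 fold change of 0.52 (95% interval 0.09 to 0.95 before any adjustment), and did not pass limma's adjusted threshold. NFATC2, a calcium-regulated partner of MEF2, was at −0.15. Among the corepressors, GPS2, a subunit of the NCOR complex, was at 0.56 and BCOR, a BCL6 corepressor, at −0.47. On leaving out 1 library in turn, BCOR ranged from −0.81 (without uninduced library 1) to −0.25 (without day 7 library 2), and NFATC2 from −0.24 (without uninduced library 1) to −0.09 (without day 7 library 1).

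The kinase MARK2, which phosphorylates class IIa HDACs, was at −0.38, and STK11, which encodes LKB1, at −0.23. The deacetylases HDAC2 and HDAC6 were at 0.24 and −0.26, the 14-3-3 genes YWHAE and YWHAQ at −0.06 and 0.06, and the targets RHOB and NR4A1 at 0.23 and −0.23. On leaving out 1 library in turn, HDAC2 ranged from 0.11 (without day 7 library 2) to 0.36 (without day 7 library 1), and HDAC6 from −0.39 (without uninduced library 1) to −0.06 (without day 7 library 2). RHOB ranged from 0.11 (without uninduced library 2) to 0.37 (without uninduced library 1), and NR4A1 from −0.37 (without day 7 library 3) to −0.0030 (without day 7 library 1), while YWHAE and YWHAQ changed sign. None of these passed the adjusted threshold. SIK1, a kinase of class IIa HDACs named after its values were seen, had 3.48, 2.55 and 2.28 TPM in uninduced libraries, was listed at 0, 2.94 and 0 at day 5, and had 4.15, 2.80 and 2.86 at day 7. Both zeros lie in day 5 libraries, and the row is low in every library.

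**Figure D5:**
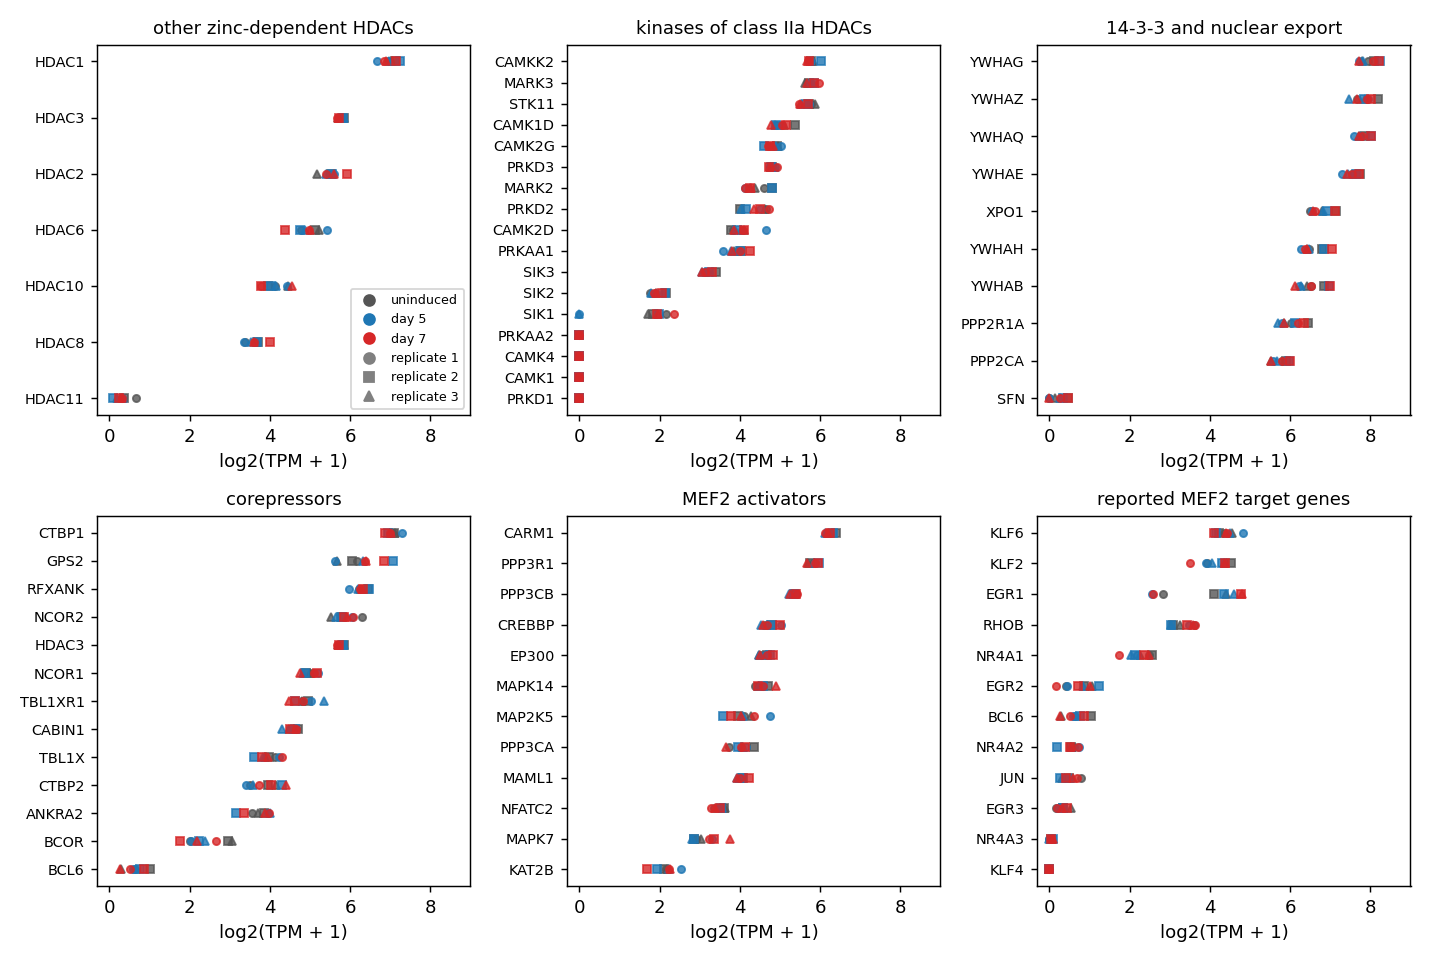
Log2(TPM + 1) of the pathway genes in 9 libraries, in 6 panels by role, with colours for the groups and symbols for the replicate numbers. EGR1 lies lower in the 3 libraries numbered 1 than in the other 6, and PRKD1, CAMK1, CAMK4, PRKAA2 and KLF4 are at 0 throughout.

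By replicate number, where 12.6% of all tested genes passed, the F test called 4 of 9 genes of the 14-3-3 and export list. They were YWHAB, YWHAH, XPO1 and the phosphatase subunit gene PPP2R1A. Also called were 2 of 6 tested targets, EGR1 and KLF2. The calls of YWHAB, YWHAH, XPO1, PPP2R1A and KLF2 were each lost on leaving out 4 or more of the 9 libraries in turn. That of EGR1 held in all 9. The F test called 0 of the other HDACs, kinases, corepressors and activators. At the level of single genes, the kinases PRKD1, CAMK1, CAMK4 and PRKAA2 were listed at 0 in all libraries, and BCL6, a repressor that MEF2B is known to activate in germinal centre B cells, was between 0.20 and 1.03 TPM.

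Chromatin immunoprecipitation gave 1 list of 482 peaks, called in a wild-type Z138 library with a library of clone # 7 at 7 days of doxycycline as control. None of the 8 members had a peak within 10 kb or within 100 kb of its span, nor among the 52 peaks with a −log10 p of at least 3. The share of all genes with a peak this near was not computed, so the count is not a trait of the family. The nearest lay 835.5 kb from HDAC5, and chromosome 12, which carries HDAC7, held 0 peaks. With 1 library on each side there is no replicate check, and no peak near a gene says only that none is in this list.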

How the data were processed

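RNA was sequenced from 9 libraries and chromatin from 2. The authors deposited TPM, a relative transcript abundance, in 1 table for all RNA libraries. The deposited peak list holds for each peak a score, a signal value and a −log10 p of the peak caller. Those values are the authors' own, and the score and signal were not compared between libraries. HISAT2 2.1, StringTie 1.3.4 and Genrich 1.0 are among the tools named, without roles, per the submitters' processing notes, and the build is hg38. How reads were counted by strand is not stated, so reads of a gene and an antisense partner cannot be told apart. Depth cannot be read from TPM.

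The table's day 0 columns were matched to the uninduced samples by number. Values were transformed to log2(TPM + 1), which understates changes of low genes. Genes of at least 1 TPM in at least 3 libraries, 15045, were fitted with limma 3.58.1 in R 4.3.3, with group as the only term, an intensity trend and Benjamini-Hochberg adjustment at 0.05. Replicate number was tested by an F test in a fit of group plus number. The p-values rest on the spread between 3 vials per group. The fits were tested on simulated data with noise drawn independently for each library. For the group comparisons the simulation held no differences between replicate numbers, so it does not cover such differences in these libraries. Alternatives were another pseudocount, other filters, scalings, subsets of libraries, the replicate block and leaving out each library.

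The members and lists were chosen with earlier results of these data known. The rule names all members, DNMT3A, overlapping genes, list members past the threshold or else the 2 with the smallest day 7 p, and the most correlated genes. Some items that this rule or the marker lists cover are not reported here.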

Additional observations from a re-analysis of the deposited data

How the results depend on the processing

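Fold changes of the 7 tested members were computed under 19 alternatives, giving 521 values over 28 results. Of these, 475 kept their sign and 46 changed it, and none passed the threshold (smallest adjusted p 0.867). Part of the 475 could not change. The replicate block, the fit without an intensity trend, the other filters and the fit of only the 2 groups compared leave a fold change as it is. So does leaving out a library of a group not compared, and summing the MEF2B rows alters MEF2B alone. Causes were not tested. Genes called were, at day 5, 3 with no filter and 0 with the libraries numbered 1 and 3 only. At day 7 they were 1 with no filter, 4 with only the 2 groups compared and 1 with numbers 1 and 3. Between day 7 and day 5 they were 4 with no filter and 5 with 2 groups. With both induced groups they were 0 with no filter and 0 with numbers 1 and 3. For replicate number, 368 were called with no filter. With numbers 1 and 3 only, signs turned for MEF2A at day 7 (0.0700), DNMT3A at day 7 (0.0286), HDAC4 between day 7 and day 5 (0.00166), and, with both induced groups, HDAC5 (0.00393), HDAC7 (0.0581) and HDAC9 (0.0192). Median-of-ratios scaling turned DNMT3A at day 7 (0.0212) and HDAC5 with both induced groups (0.00131), and quantile normalization DNMT3A at day 7 (0.0279).

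Leaving out each library in turn, genes called ranged from 1 to 3 at day 5, 0 to 3 at day 7, 1 to 3 between them, 1 to 4 with both induced groups, and 251 (without day 5 library 2) to 1620 for replicate number. The day 5 log2 fold changes ranged from −0.35 (without uninduced library 2) to 0.70 (without uninduced library 1) for MEF2B, −0.0252 to 0.0827 for MEF2D, −0.0154 to 0.14 for HDAC4, −0.22 to 0.0351 for HDAC5, −0.17 to 0.0188 for HDAC7 and −0.22 to 0.13 for HDAC9. At day 7 they ranged from −0.11 to 0.0373 for MEF2A, −0.25 to 0.79 for MEF2B, −0.0661 to 0.13 for HDAC4, −0.0302 to 0.0613 for HDAC5, −0.0410 to 0.17 for HDAC7, −0.0604 to 0.0521 for DNMT3A, −0.14 to 0.00369 for YWHAE and −0.0293 to 0.12 for YWHAQ. Day 7 against day 5 they ranged from −0.39 to 0.59 for MEF2B, −0.15 to 0.0568 for HDAC4 and −0.0210 to 0.24 for HDAC5. With both induced groups they ranged from −0.0126 to 0.13 for MEF2A, −0.30 to 0.74 for MEF2B, −0.0286 to 0.12 for HDAC4, −0.10 to 0.0246 for HDAC5, −0.0711 to 0.0429 for HDAC7 and −0.30 to 0.0406 for HDAC9.

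After each gene's group mean was subtracted, same-numbered libraries of different groups correlated over 0.1 in 8 of 9 pairs (0.08 to 0.44). Differently numbered ones ranged from −0.41 to 0.19. Of the best matches, 16 of 18 had the same number, a hint from the data that does not pair the libraries. With the replicate block, the MEF2B log2 fold change had an SE of 0.16 and an interval of −0.19 to 0.56 at day 5 and −0.09 to 0.65 at day 7. Depth is unknown from TPM, and values near 0, as for MEF2C and SIK1, cannot be given a counting error.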
